A study of Mus musculus with 2 samples.

Results

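Uroplakins are the membrane proteins that cover the lumen-facing surface of the urothelium, the epithelium that lines the renal pelvis, ureter and bladder. Upk1a and Upk1b encode tetraspanins, whereas Upk2, Upk3a and Upk3b encode proteins that cross the membrane a single time. Uroplakin 1a pairs with uroplakin 2 and uroplakin 1b pairs with uroplakin 3a or 3b, and the pairs leave the endoplasmic reticulum, travel in vesicles and assemble into rigid plaques on superficial cells, where they form part of the barrier to urine. High uroplakin expression is a sign of late urothelial differentiation. The ureteric epithelium is also the source of SHH in the ureter, and the response to this signal lies mainly in the surrounding mesenchyme.

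The members were all probes present on both arrays, other than control spots, whose gene name in the array file was Upk1a, Upk1b, Upk2, Upk3a or Upk3b. This rule found 5 probes for 5 genes, out of 39429 probes and 30011 genes or unnamed targets on the array, so that each gene was read by 1 probe and no choice between probes was needed. Ureters of wildtype NMRI mice at postnatal day 0 were cultured on membranes for 18 h in medium with 10 µM cyclopamine, an inhibitor of SMO and so of the cell's response to SHH, or in control medium with DMF at 1 in 1000. RNA from pools of several ureters was hybridised to 2 arrays with 2 colours each, so that every array compared cyclopamine with control directly. Replicate 1 held female pools with cyclopamine in the red dye AlexaFluor647, and replicate 2 held male pools with cyclopamine in the green dye AlexaFluor555, so sex, dye orientation and replicate cannot be told apart. The labels name DMF as the control solvent, whereas the methods of the study name ethanol as the solvent of cyclopamine, and a source name in the labels gives IWP-2 where the title, treatment entry and protocol give cyclopamine.

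Which stretch of each transcript was measured is shown by the probes themselves. The last 30 bases of each probe of 60 bases are given 5′ to 3′ as the array file holds them, with the letters of the common polyadenylation signal in capitals where they occur.

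Upk1a: gttggctggacacccAATAAAtactggctg

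Upk1b: gacgactctcattcctgtctatgtttaatg

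Upk2: ctcttaactgtacttaattctcacAATAAA

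Upk3a: aaatgacacacgactcacagatcacccagg

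Upk3b: tggctattaatgacagtcggctacctagcc

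The signal letters stood in the probes of Upk1a and Upk2 and in 12.6% of all probes on the array. In build mm9, the build of the array annotation, the Upk1a probe lies at chr7:31388111-31388170 on the minus strand and the Upk1b probe at chr16:38773859-38773918 on the minus strand. The Upk2 probe lies at chr9:44260822-44260881 on the minus strand and the Upk3b probe at chr5:136520522-136520581 on the plus strand. The Upk3a probe, on the plus strand, is listed at chr15:84851819-84852720, a span of 902 bases for 60 bases of probe, so its sequence is split over the genome. The annotation in the array files gives no exon or UTR for these positions.

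All 5 uroplakins were measured far above the local background, and none of them passed the test for a change with cyclopamine. Upk1b and Upk3a were slightly higher with cyclopamine on both arrays, whereas Upk1a, Upk2 and Upk3b lay on opposite sides of 0 on the arrays. Every uroplakin stayed within 1.5-fold of its control on each array, as did 78.2% of all genes tested. The SHH response genes, read as a check on the treatment in the same RNA, were all called lower. Gli1, a transcription factor gene switched on by SHH, had a log2 ratio of -1.83 on replicate 1 and -2.09 on replicate 2 (mean -1.96, limma adjusted p = 1.76e-08). Ptch1, the SHH receptor and a direct target, had -1.13 and -1.49 (mean -1.31, limma adjusted p = 0.000248). Hhip, which binds and restrains the ligand, had -0.31 and -1.99 (mean -1.15, limma adjusted p = 0.00683) and was under 1.5-fold on replicate 1.

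The 5 probes were well above background on every spot of all 4 channels, as were 62.4% of all probes. The ratio of mean spot signal, before background subtraction, to median local background was lowest for Upk3b in the control channel of replicate 2 (102.7). It was highest for Upk3a in the control channel of replicate 1 (3370), and no spot was saturated. Replicate 1 was brighter throughout, with a 75th percentile of control signal 5.32 times that of replicate 2. A lower reading on replicate 2 is therefore not a lower level. Each channel is set only against the other channel of its own array, except in the scaled comparison under Other observations. Different probes bind with different strength, so no order of abundance among the uroplakins is given.

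**Figure D1:**
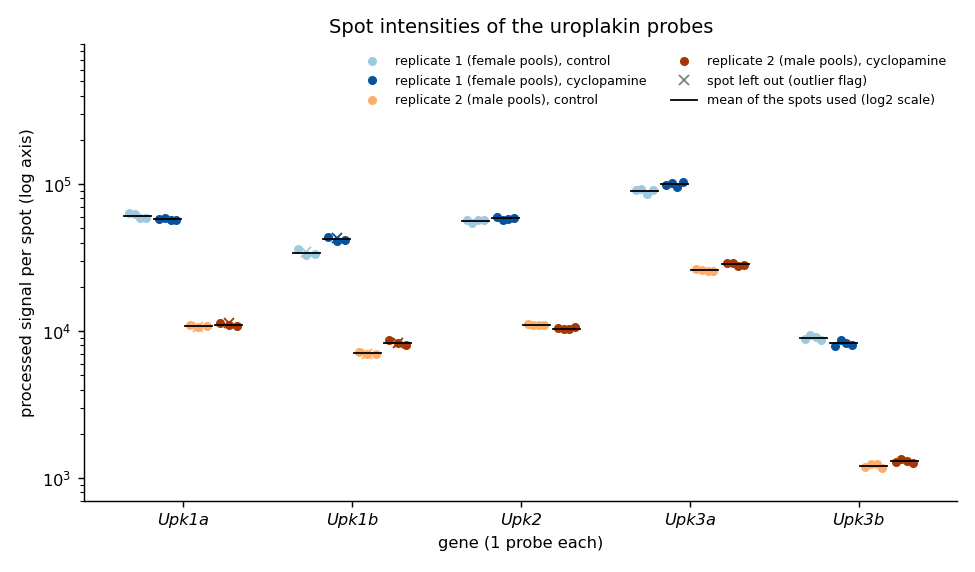
Processed signal of every spot (vertical log axis) for the 5 uroplakin probes, by array and channel; dots are spots used, crosses spots with an outlier flag and black lines the means of the spots used. Spots of 1 channel lie close together, and cyclopamine and control lie within 1.5-fold of each other on both arrays for every gene; levels are not comparable between genes or between arrays.

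Of the tetraspanin members, Upk1b showed the larger difference. The Upk1b signal was 34124 in control and 42052 with cyclopamine on replicate 1, and 7042 in control and 8360 with cyclopamine on replicate 2. On both arrays the cyclopamine spots were all brighter than the control spots, without overlap. Overlap here and below compares the channels as groups, although both are read from the same spots. The log2 ratio was 0.30 on replicate 1 and 0.25 on replicate 2, which gave a mean of 0.27 ± 0.04 (SD, n = 2 arrays), or 1.21-fold. The arrays differed by little, but the limma test, which takes most of its error from the spread of all probes, gave a 95% interval from -0.18 to 0.73 and an adjusted p of 0.740. Among all genes tested, 69.4% had a smaller absolute mean log2 ratio than Upk1b.

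Upk1a, the partner of Upk2, was at 60925 in control and 57691 with cyclopamine on replicate 1, and at 10831 and 11073 on replicate 2. The log2 ratio was -0.08 on replicate 1, where the spots of the channels did not overlap, and 0.03 on replicate 2, where they did. Its mean was -0.02 ± 0.08 (SD, n = 2), with a limma 95% interval from -0.48 to 0.43 and an adjusted p of 0.985.

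Upk2, which carries a cleaved pro-sequence and needs uroplakin 1a for export, read 56482 in control and 58482 with cyclopamine on replicate 1, and 11052 and 10406 on replicate 2. Cyclopamine was thus the brighter channel on replicate 1, with overlapping spots, and the dimmer on replicate 2, without overlap. The log2 ratios were 0.05 and -0.09, with a mean of -0.02 ± 0.10 (SD, n = 2) and an interval from -0.47 to 0.44 (limma adjusted p = 0.988).

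Upk3a, whose protein carries the cytoplasmic tail of its pair, had 90443 in control and 100205 with cyclopamine on replicate 1, and 25932 and 28404 on replicate 2. Cyclopamine spots lay above all control spots on both arrays. The log2 ratios of 0.15 and 0.13 differed less between arrays than those of any other uroplakin, with a mean of 0.14 ± 0.01 (SD, n = 2), or 1.10-fold. The interval from -0.31 to 0.59 includes 0 (limma adjusted p = 0.884).

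Upk3b, the minor relative of Upk3a that is also known from mesothelium, was the dimmest against its background. It read 9018 in control and 8259 with cyclopamine on replicate 1, where the spots overlapped, and 1209 and 1304 on replicate 2, where they did not. The log2 ratios were -0.13 and 0.11, and the mean was -0.01 ± 0.17 (SD, n = 2), with an interval from -0.46 to 0.45 (limma adjusted p = 0.994).

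**Figure D2:**
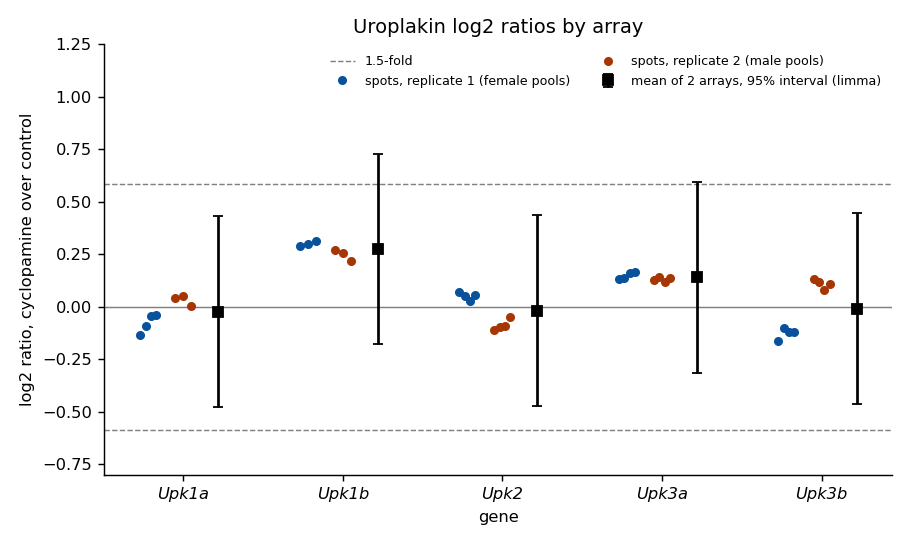
Log2 ratio of cyclopamine over control (vertical axis) for each uroplakin; dots are the spots used on replicate 1 and replicate 2, squares the mean of both arrays with its 95% interval from limma, and dashed lines mark 1.5-fold. Upk1b (mean 0.27) and Upk3a (mean 0.14) lie above 0 on both arrays, the spots of the other genes fall on opposite sides of 0, and all intervals include 0.

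In counts, 0 of 5 uroplakins were called lower and 0 of 5 higher by limma at an adjusted p under 0.05, beside 0.77% of 25975 probes called lower and 0.454% called higher. At an unadjusted limma p under 0.05 the count was likewise 0 of 5, beside 2440 of 25975 probes. By the intensity and fold limits of the study, asked here of each array, 0 of 5 were lower and 0 of 5 higher, beside 0.63% and 0.212% of 13661 genes with a control signal over 100 on both arrays. Of the members 2 of 5 were higher on both arrays and 0 of 5 lower on both, against 28.6% and 28.9% of all genes tested. The intervals give the changes that the limma fit allows, with most of the error taken from the spread of all probes. For Upk1a, Upk2 and Upk3b they ran from 0.72-fold to 1.36-fold at the widest, whereas those of Upk3a and Upk1b reached 1.51-fold and 1.66-fold. These limits hold for the main setting only. Without the trend along gene length described below, the mean log2 ratio of Upk2 was 0.18 instead of -0.02. The smallest change that limma called on these arrays was 1.77-fold.

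Spots repeat the measurement of 1 labelled pool and not the culture. The overlap of channels given above leaves out that both dyes are read within each spot. Spot by spot, the log2 ratio of each uroplakin kept its sign on each array, also where the channels overlapped. For Upk3b on replicate 1 it ran from -0.16 to -0.10. How often this holds among all probes was not counted. The SD of the log2 ratio among spots of a uroplakin was 0.010 to 0.046, below the SD between arrays for all members but Upk3a. The limma standard error was 0.226 for all of them, since 2 arrays leave a single residual degree of freedom.

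The members can also be read as the pairs in which their proteins leave the endoplasmic reticulum. This grouping was noted after the values were known, so it is given without a test. The mean log2 ratio of Upk1b and Upk3a was 0.22 on replicate 1 and 0.19 on replicate 2, and that of Upk1a and Upk2 was -0.01 and -0.03. The first pair thus stood higher by 0.24 and 0.22. Taking out the trend with gene length described next left 0.09 on replicate 1 and 0.19 on replicate 2. Upk3b, whose protein is the other partner of uroplakin 1b, was left out of this contrast. Its log2 ratios were -0.13 and 0.11, against 0.15 and 0.13 for Upk3a. The size of the difference thus depends on which partner is taken, mainly on replicate 1.

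**Figure D3:**
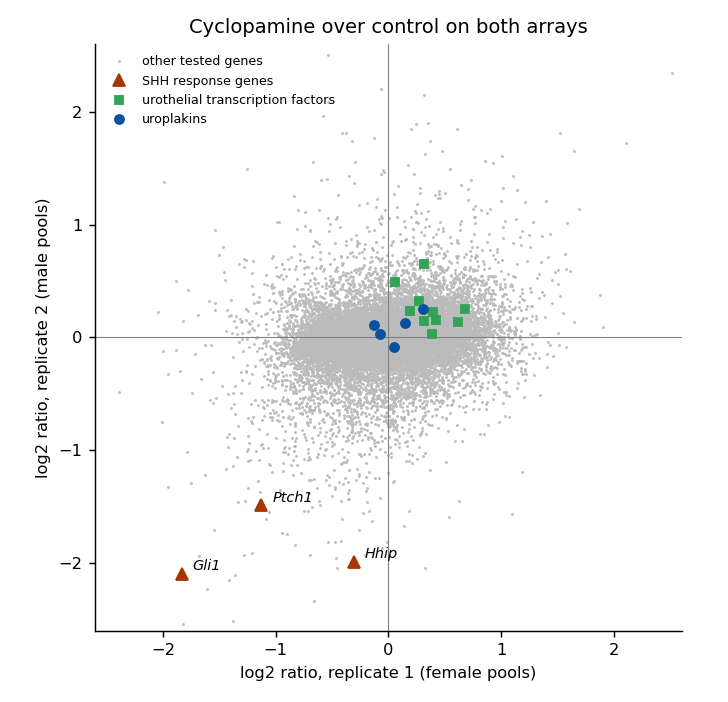
Log2 ratio of cyclopamine over control on replicate 1 (horizontal) against replicate 2 (vertical) for the tested genes, with the uroplakins, the urothelial transcription factors and the SHH response genes marked; 10 genes lie beyond the axes. The uroplakins lie in the dense centre except Upk1b (0.30 and 0.25), which lies among the transcription factors to the upper right of 0. Gli1, Ptch1 and Hhip lie below 0 on both axes.

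Uroplakin genes are short, and on replicate 1 the log2 ratio moved with the genomic length of the gene. Over 16017 tested genes with a RefSeq length, Spearman's rho across genes was 0.44 on replicate 1 and 0.03 on replicate 2; genes share the array and are not independent. On replicate 1 the median log2 ratio was -0.36 in the shortest of 20 equal bins and 0.31 in the longest, against -0.06 and -0.08 on replicate 2. The median length of the uroplakin genes was 6498 bp, compared with 21389 bp for all genes tested. Upk2 (2053 bp), Upk3a (5420 bp), Upk3b (6498 bp) and Upk1a (9643 bp) lie in the short range, and Upk1b (27022 bp) does not. After a smooth trend along length was removed on each array, replicate 1 gave a log2 ratio of 0.40 for Upk2, 0.39 for Upk3a, 0.27 for Upk1b, 0.09 for Upk1a and 0.09 for Upk3b. On replicate 2 these values were -0.04, 0.16, 0.23, 0.04 and 0.13. With this setting no uroplakin was called. What lies behind the trend was not tested.

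**Figure D4:**
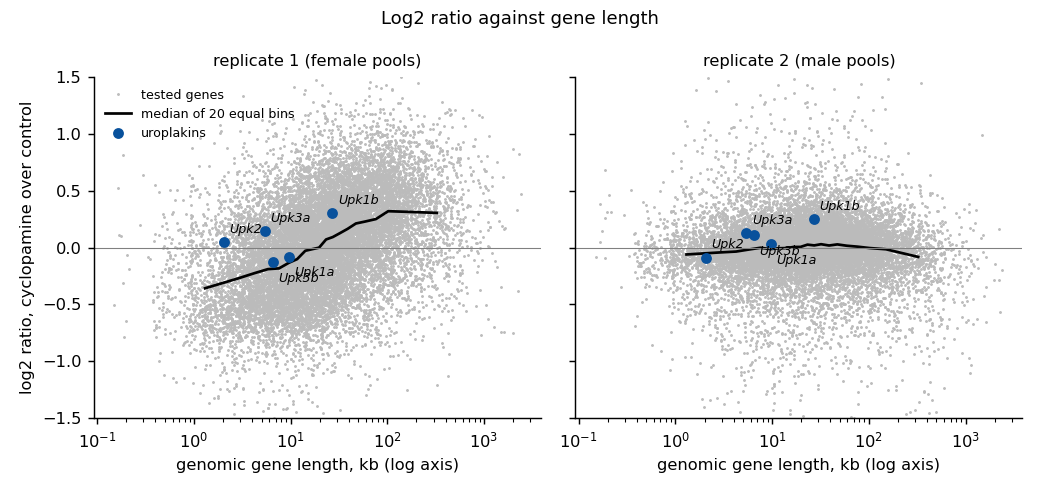
Log2 ratio of cyclopamine over control (vertical) against genomic gene length in kb (horizontal log axis) on replicate 1 (left) and replicate 2 (right); grey dots are tested genes, the line joins the medians of 20 bins of equal gene number and blue dots are the uroplakins. The line climbs from -0.36 to 0.31 on replicate 1 and stays near 0 on replicate 2, and the uroplakins on replicate 1 lie above the line.

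Vesicle transport brings uroplakins to the cell surface. All 8 genes listed for this step were tested, and 6 of 8 were higher on both arrays and 0 of 8 lower on both (median log2 ratio 0.28, with 0.39 on replicate 1 and 0.17 on replicate 2; all genes -0.01), with 0 of 8 called in either direction by limma. Mal, a raft protein of the apical membrane, showed the largest value, with log2 ratios of 0.68 and 0.28 (mean 0.48, limma adjusted p = 0.489), followed by the motor gene Myo5b with 0.64 and 0.20 (mean 0.42, adjusted p = 0.580). Rab27b, a GTPase of uroplakin vesicles, gave 0.52 and 0.24 and was not called either. The genes of this list are long, with a median of 50177.5 bp. For this list and those that follow, 28.6% of all genes tested were higher on both arrays and 28.9% lower on both. The lists were written with earlier results of these data known.

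All 10 listed urothelial transcription factors were higher on both arrays, against 28.6% of all genes tested. Of these factors 0 of 10 were called by limma or by the limits of the study. Their median log2 ratio was 0.35 on replicate 1 and 0.23 on replicate 2, and their median length was 26730.5 bp, near that of all genes. The values ranged from 0.21 to 0.48 in the mean, the highest being those of Ovol1, a zinc finger factor of epithelia (0.31 and 0.65, limma adjusted p = 0.493, dim on replicate 2 with 23 in control and 36 with cyclopamine), and Trp63, the factor of basal cells (0.68 and 0.25, adjusted p = 0.520). Grhl3, Gata3, Pparg and Klf5, which are known to act upstream of urothelial differentiation, had means of 0.31, 0.29, 0.23 and 0.21. Gene lengths in this list ran from 4899 bp (Elf3) to 208326 bp (Trp63), so the trend on replicate 1 bears unequally on its members. With the length trend removed, the median of the list was 0.26 instead of 0.29.

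Markers of urothelial layers and of epithelium in general were read beside the uroplakins, because in RNA of whole ureters fewer cells of a type and less RNA per cell cannot be told apart. The 9 keratins had a median log2 ratio of 0.11, with 5 of 9 higher on both arrays, 0 of 9 lower on both and none called; on replicate 1 they ranged on both sides of 0 (median 0.01) and on replicate 2 lay higher (median 0.18). Krt8 and Krt18, the partner keratins of simple and superficial epithelium, had the largest means, 0.27 and 0.23 (limma adjusted p = 0.742 and 0.792). Krt20, a keratin of superficial cells and so of the cells richest in uroplakins, gave -0.20 and 0.00, Krt5 of the basal layer 0.16 and 0.08, and Krt14, also basal, -0.52 and 0.19. Pan-epithelial genes had a median of 0.16 (0.00 on replicate 1 and 0.24 on replicate 2), with 4 of 8 higher on both arrays and none called. Among them were Dsp, a desmosome gene (0.76 and 0.09, limma adjusted p = 0.588), and Esrp1, a splicing factor of epithelia (0.47 and 0.20, adjusted p = 0.675). The part of epithelial content in the uroplakin values was not tested.

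Tetraspanins outside the uroplakin pair gave a median of -0.06 (-0.11 on replicate 1 and 0.03 on replicate 2), with 1 of 7 higher on both arrays, 2 of 7 lower on both and none called. Tspan1 had log2 ratios of -1.02 and 0.72 at a control signal of 195 and 29 (limma adjusted p = 0.894), and Cd9 had 0.07 and 0.19 (adjusted p = 0.893). Of the signals made or received by the urothelium, 4 of 5 were higher on both arrays and 1 of 5 lower on both, and none was called (median 0.18). The lower gene was Wnt4, with -0.10 and -0.22. Shh itself had 0.13 and 0.22, Wnt7b 0.39 and 0.31 (limma adjusted p = 0.664) and Bmp7 0.11 and 0.30 (adjusted p = 0.820).

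**Figure D5:**
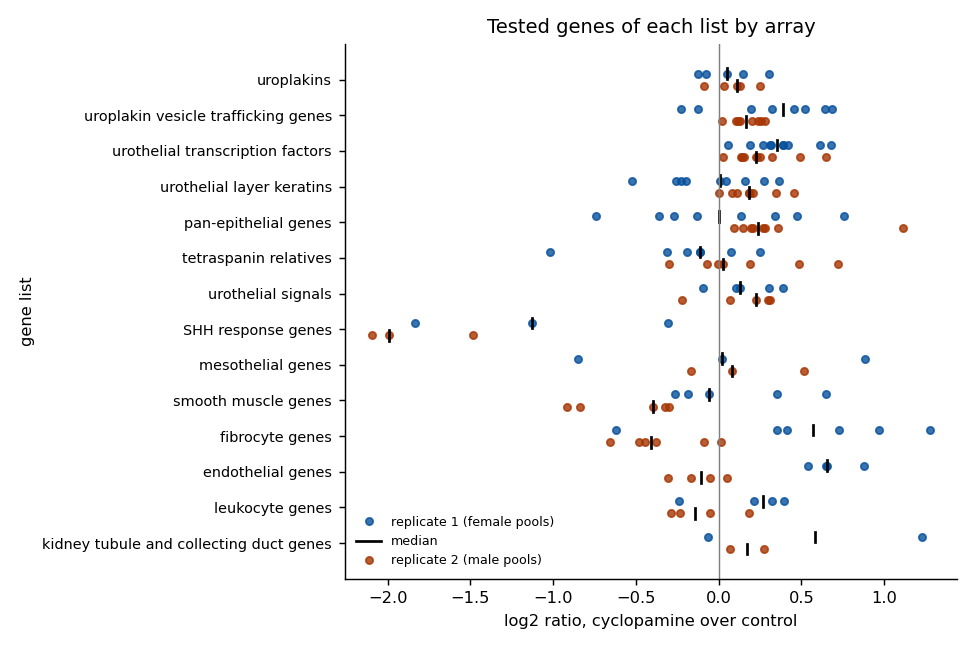
Log2 ratio of cyclopamine over control (horizontal axis) for the tested genes of each list (rows), by array, with a black bar at the list's median on that array. Uroplakins lie close to 0 on both arrays, with Upk1b farthest at 0.30 and 0.25, whereas fibrocyte and endothelial genes lie mostly above 0 on replicate 1 and below 0 on replicate 2.

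Other cell types of the explant were followed by their markers. Mesothelial genes matter most for Upk3b: 3 of the 6 listed were tested, Lrrn4 and Calb2 were not well above background and Muc16 was not analysed here. Msln, a surface protein of mesothelium, gave -0.85 and 0.08 (limma adjusted p = 0.644), Wt1 0.88 and 0.52 (adjusted p = 0.145) and Gpm6a 0.02 and -0.17. Upk3b and Msln were both lower on replicate 1 and higher on replicate 2, but Wt1 was higher on both and Gpm6a had the reverse pattern. Opposite signs on the arrays were found for 8227 of 19398 genes tested. The part of mesothelium in the Upk3b values was not tested. Smooth muscle genes had a median of -0.06 on replicate 1 and -0.40 on replicate 2, with 3 of 5 lower on both arrays, led by Cnn1 (-0.26 and -0.84, adjusted p = 0.369) and Acta2 (-0.06 and -0.92, adjusted p = 0.504). Fibrocyte genes had medians of 0.57 and -0.41, with 1 of 6 past the limits of the study, Aldh1a2 (-0.62 and -0.65, adjusted p = 0.218), a retinoic acid synthesis gene; Pdgfra had the largest mean, 0.64, from 1.27 and 0.01 (adjusted p = 0.266). Endothelial genes had medians of 0.65 and -0.11, with Tek at 0.66 and 0.05 and Pecam1 at 0.65 and -0.05. Leukocyte genes had medians of 0.27 and -0.14, with Cd68 at -0.24 and -0.23 and Adgre1 at 0.21 and 0.19. Of 5 kidney genes 2 were tested, at control signals of 12 to 61, Lrp2 with 1.23 and 0.28 (adjusted p = 0.120) and Aqp2 with -0.06 and 0.07, while Umod, Slc34a1 and Slc12a1 were not well above background. None of these genes was called by limma.

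Upk3bl, a gene related to Upk3b that is no member by the rule and was looked at after its values were seen, differed from the 5 uroplakins. Its brighter probe lies at chr5:136540130-136540189 on the plus strand, downstream of that of Upk3b. Its signal was 2170 in control and 1076 with cyclopamine on replicate 1, and 290 and 280 on replicate 2. The log2 ratios were -1.01 and -0.05, with a mean of -0.53, and the interval of the fold ran from 0.50 to 0.96 (limma adjusted p = 0.434). A second probe, which overlaps the first almost fully and is no independent reading, gave -1.01 and -0.03.

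By likeness to a uroplakin in the pair of log2 ratios (Euclidean distance over 2 arrays), many genes qualified, with 399 genes within 0.1 of Upk1b and 1269 within 0.1 of Upk1a. The closest genes were Rnf139 and Nlrp3 to Upk1b, Traf3ip1 and Cenpc1 to Upk3a, Slc22a21 and Rbsn to Upk2, Gm9798 and Scgb2b15 to Upk3b, and Tpr and a probe without a gene name to Upk1a. With so many genes at this distance, these names single out nothing about the uroplakins.

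RefSeq promoters of build GRCm38.p6, 250 bases before to 50 bases after the start, were searched on both strands for motifs of factors that act in SHH signalling or urothelium. The table held Upk1a, Upk3a and Upk3b, with 1 promoter each; Upk1b and Upk2 were not searched. The GLI motif GACCACCCA occurred in none of the 3 promoters and in 0.253% of all 32851 promoters, and the Grainyhead-like motif AACNGGTT in none of the 3 and in 2.09% of all. The Upk3a promoter held 1 match to the GATA letters AGATAA, present in 11.2% of all promoters, and 1 match to the KLF letters CCCCGCCC, present in 17.6%. Upk1a and Upk3b held neither. These are matches of letters only.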

How the data were processed

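Per the labels, total RNA was amplified in a single T7 round, labelled and hybridised to whole-genome Agilent arrays. The deposited spot intensity values were made with Agilent Feature Extraction (12.2.0.7 in the file headers, 10.7.3.1 in the submitters' notes), which per the file headers subtracted background and balanced the dyes. The authors' deposited series table holds a score per probe, a signed fold change rounded to 1 decimal, used as an alternative, and the deposited log10 ratio of red over green, not turned for the dye swap, served only to find its direction.

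Spots with an outlier flag were left out (2.89% and 3.15%), the remaining spots of a probe, up to 4, were averaged as log2 signal, and ratios were turned to cyclopamine over control. Probes with at least 0.5 of their spots well above background in the same condition on both arrays were tested: 25975 probes, or 19398 genes by brightest probe. limma 3.58.1 in R 4.3.3 (lmFit, eBayes, +1 and -1 for dye, two-sided) was used with Benjamini-Hochberg adjustment over all of them, after it was tested on simulated data. The simulated ratios had independent noise of equal spread on both arrays and no length trend. This checked the code and not how well these data meet the model. The study states a limit on control intensity and on fold; here a control signal over 100 and 1.5-fold the same way were asked of each array, which the study does not state, so the gene counts need not be those of the study. Names came from RefSeq through probe accessions (28328 probes). Pools are the replicates, 1 per sex. The number of arrays limits the precision. Named were all uroplakins, SHH targets and the 2 genes most like each uroplakin. Of each other list, genes called, past the study limits or among the 2 with the largest absolute mean log2 ratio were named. Further list members are named as examples chosen with values known. Members and lists were chosen with earlier results of these data known. Alternatives changed background correction, spot and probe filters, prior, error model, probe averaging and arrays used. A trend along gene length and a second scaling between arrays were added after seeing the data.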

Additional observations from a re-analysis of the deposited data

Results flagged for a closer look

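Upk1a, Upk2 and Upk3b stood out because their log2 ratios had opposite signs in the female pools of replicate 1 and the male pools of replicate 2. The ratio of replicate 1 minus that of replicate 2 was -0.11 for Upk1a, 0.14 for Upk2 and -0.24 for Upk3b. With 1 array per sex and the dyes swapped between them, the differences were not tested, and sex, dye and replicate cannot be told apart. Opposite signs were found for 8227 of 19398 genes tested.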

How the results depend on the processing

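No uroplakin was called by limma in the main setting or in any of the 10 alternatives with a test, where adjusted p ran from 0.511 to 1, and none passed the study limits in their 9 alternatives. The series table and the 4 channels as separate samples called no probe at all, so their lack of uroplakin calls tells nothing about the uroplakins. Upk1b (mean log2 ratio 0.25 to 0.32) and Upk3a (0.11 to 0.27) kept their direction in all of these. Changes of probe filter, prior, error model and probe averaging left both ratios at the main value. They cannot move the ratio of a bright gene read by its only probe, so they are no test of direction. Direction was tested by normexp with loess, the series table and removal of the length trend. Keeping outlier spots moved the ratio of Upk1b but not that of Upk3a. Near 0, signs turned: with normexp (offset 50) and loess Upk1a was 0.028, Upk2 0.022 and Upk3b 0.00068, with normexp (offset 10) and loess Upk1a was 0.0086 and Upk2 0.0022, and without the length trend Upk1a was 0.065, Upk2 0.18 and Upk3b 0.11. Without either replicate, values without a test ran from -0.08 to 0.03 for Upk1a, 0.25 to 0.30 for Upk1b, -0.09 to 0.05 for Upk2, 0.13 to 0.15 for Upk3a and -0.13 to 0.11 for Upk3b. The uroplakin median of -0.01 became 0.18 without the length trend and 0.050 to 0.11 without a replicate. Removing the length trend also put the median of keratins at 0.25, of urothelial signals at 0.11 and of mesothelial genes at -0.16; leaving out a replicate put mesothelial genes at 0.018 to 0.078 and SHH response genes at -1.99 to -1.13. The tetraspanin median of -0.06 ran from -0.11 to 0.03 without a replicate and was 0.022 without the length trend; the median of trafficking genes ran from 0.17 to 0.39 without a replicate.

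Over all probes limma called 200 lower and 118 higher. Normexp with loess gave 42 and 12 (offset 50) or 123 and 52 (offset 10), no dim filter 216 higher, and removal of the length trend, which also left only the 22468 probes with a gene length, 255 higher. The series table and the 4 channels as separate samples gave 0 and 0 by limma, with 818 and 1051, and 291 and 274, at an unadjusted p under 0.05. The study limits as applied here, 86 lower and 29 higher, gave 55 lower with control over 200, 20 and 3 at 2-fold, 180 and 141 on the mean ratio, 19 higher with the series table, and 229 to 1743 lower and 80 to 1362 higher on 1 array. The cause was not tested. The main fit is paired by construction, since cyclopamine and control share an array; the 4 channels as separate samples are the unpaired alternative. Every uroplakin spot was well above background, and precision rests on 2 arrays.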

Other observations

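The level of the uroplakins on replicate 2 against replicate 1, averaged over both channels, depended on the scaling between arrays for most members. With each channel set to its 75th percentile, the log2 difference was -0.02 for Upk1a, 0.11 for Upk1b, -0.01 for Upk2, 0.60 for Upk3a and -0.37 for Upk3b. With Aquantile normalisation it was -0.43, -0.14, -0.41, -0.19 and -0.41 in the same order. Upk3b was thus lower on replicate 2 by a like amount under both scalings, whereas Upk1b and Upk3a turned sign. With Aquantile every member was lower on replicate 2, Upk1a and Upk2 by about as much as Upk3b, so Upk3b did not stand apart there. With 1 array per sex these differences were not tested.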
